A study of Homo sapiens with 12 samples.

Results

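The 45 genes described here encode glycolytic enzymes, glucose and lactate carriers, and the sensors and targets of the hypoxia-inducible factors (HIF). They were listed by symbol, a choice made with earlier results of these data known, and all 45 were found by Ensembl identifier among the 61757 genes that both count tables hold. By role they divide into 24 glycolytic enzymes, carriers and kinases and 21 genes of the HIF system and its other targets.

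Glycolysis splits glucose into pyruvate in the cytoplasm, and lactate dehydrogenase turns pyruvate into lactate where it is not burned in mitochondria. The alpha subunits of HIF are hydroxylated by the oxygen-dependent EGLN enzymes and then degraded. When oxygen is low the subunits persist, pair with ARNT and bind the core letters ACGTG or GCGTG near their target genes, many of which encode glycolytic enzymes. Carbonic anhydrase CA9, the pyruvate dehydrogenase kinase PDK1 and the mitophagy receptor BNIP3 are among the best known targets in tumour cells.

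RNA was sequenced from RT4, an established human bladder cancer cell line, in 2 experiments of 6 libraries each. In the overexpression experiment RT4 cells in the medium labelled Mycoy' s 5A received a plasmid for Flag-tagged ITGB4, the integrin beta subunit of hemidesmosomes, or the empty Flag vector, with 3 libraries in each group. In the resistance experiment RT4 cells in MEM were either labelled cisplatin-resistant and treated with cisplatin, or were parental cells given PBS, again with 3 libraries in each group. Both media held 10% fetal bovine serum. The labels give no cisplatin dose or time, no number of transfected pools and no number of resistant clones, so resistance and cisplatin exposure cannot be told apart. The parental columns of the count table bear the abbreviation NC, which the titles of the vector controls also use, and were taken as parental by elimination. The group label of replicates 2 and 3 in both plasmid and vector groups names ITGB5 and ITGB6, while their titles and the study design name ITGB4. The labels do not say whether a group's libraries were grown as separate cultures; the p-values therefore reflect library-to-library variation that could be purely technical.

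Total counts ran from 22701466 to 33352045 per library in the overexpression table and from 31824582 to 38199946 in the resistance table. The 37 mitochondrial genes were listed at 0 in every library of the first table and took 1.63% to 2.02% of counts in the second. ITGB4 itself stood at 858, 879 and 871 normalised counts (CPM, counts scaled to a common library size) in the vector libraries and at 1485, 1379 and 1416 CPM in the plasmid libraries, a log2 change of 0.71 (SE 0.026, adjusted p = 2.22e-13). It was also higher in the resistant libraries, at 837 ± 9.37 against 600 ± 2.09 CPM (SD, n = 3), a log2 change of 0.48. Of 12 urothelial markers 10 reached 1 CPM in every group, while KRT20 was at 0 and UPK1A below 1 CPM. Summed urothelial markers ran from 4101 to 4289 CPM in vector and 5912 to 6375 CPM in plasmid libraries. They ran from 6696 to 6778 CPM in parental and 7140 to 8376 CPM in resistant libraries. Single markers went both ways. From vector to plasmid KRT19 went from 1059 to 1798 CPM and UPK2 from 6.42 to 3.34 CPM. From parental to resistant KRT7 went from 1238 to 1675 CPM, UPK1B from 70.3 to 28.7 CPM and FOXA1 from 407 to 233 CPM. The part of the urothelial markers in the results below was not tested. Summed fibroblast markers ran from 48.1 to 52.3 CPM in vector and from 24.4 to 26.0 CPM in plasmid libraries. They were at 11.5 CPM or more in each parental library and at 4.43 to 5.73 CPM in the resistant ones. Of these 6 genes only COL1A1 and COL3A1 exceeded 1 CPM in any group, and they moved in opposite directions in each experiment. COL3A1 was at 45.9 and 18.2 CPM in vector and plasmid, and COL1A1 at 4.05 and 6.89 CPM. In parental and resistant cells COL1A1 was at 11.7 and 4.67 CPM, and COL3A1 at 0.0558 and 0.387 CPM. The part of these markers in the results was not tested either. Leukocyte markers summed to 1.09 CPM or less, endothelial markers to 2.51 and erythroid markers to 0.160 CPM or less in every library.

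Promoter windows from RefSeq (GRCh38.p14) were matched by symbol for 41 of the 45 genes, and SLC2A3, BNIP3L, HILPDA and NDRG1 had none. Each window was read over the 250 bases before a transcript start, on both strands, for the HIF core letters ACGTG and GCGTG. The former is also part of the E-box CACGTG, which holds it on both strands. Of the 72 member windows 63.9% held a match, against 43.2% of 35116 windows in the table. Those 35116 windows include genes that were not tested here. By gene, 85.4% of the 41 members held a match, beside 47.4% of 27305 genes with a window. Among tested genes with a window 7250 held a match and 4228 did not. The windows below belong to ANGPTL4 and HK2, which rose strongly with the plasmid, MXI1, which rose most in resistant cells, and EGLN3, which fell with the plasmid; windows were printed whole only where at most 30 bases lie in an annotated exon. Capitals mark the matches, all sequences run 5′ to 3′ on the strand of the gene, and a match is a description of letters, not of binding.
ANGPTL4, chr19:8363905-8364154, plus strand: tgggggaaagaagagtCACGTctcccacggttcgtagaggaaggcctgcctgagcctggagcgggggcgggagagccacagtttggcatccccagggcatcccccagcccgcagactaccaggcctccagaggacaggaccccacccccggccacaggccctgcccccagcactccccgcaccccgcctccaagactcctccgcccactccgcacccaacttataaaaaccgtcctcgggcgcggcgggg
HK2, second of 2 windows, chr2:74834920-74835169, plus strand: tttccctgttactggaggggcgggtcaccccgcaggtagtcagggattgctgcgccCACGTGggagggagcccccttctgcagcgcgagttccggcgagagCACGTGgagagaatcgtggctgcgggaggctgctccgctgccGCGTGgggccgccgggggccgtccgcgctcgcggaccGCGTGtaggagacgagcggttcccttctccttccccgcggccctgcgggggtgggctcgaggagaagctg
MXI1, second of 3 windows, chr10:110209981-110210230, plus strand: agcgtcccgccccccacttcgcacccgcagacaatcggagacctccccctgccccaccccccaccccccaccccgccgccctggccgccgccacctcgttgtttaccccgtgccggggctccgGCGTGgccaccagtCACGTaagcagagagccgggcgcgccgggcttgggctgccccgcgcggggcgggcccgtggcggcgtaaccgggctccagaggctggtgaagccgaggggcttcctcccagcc
EGLN3, chr14:33951075-33951324, minus strand: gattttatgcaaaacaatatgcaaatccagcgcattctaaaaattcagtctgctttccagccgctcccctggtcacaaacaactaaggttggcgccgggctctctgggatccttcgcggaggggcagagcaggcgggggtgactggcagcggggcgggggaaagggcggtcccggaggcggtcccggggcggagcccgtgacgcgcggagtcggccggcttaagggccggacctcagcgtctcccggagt

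ANGPTL4 holds 1 match, HK2 holds 6, MXI1 holds 2 and the EGLN3 window holds none. For 4 other genes that rose with the plasmid, 30 bases around the match nearest to the start are shown because the rest of the window lies partly or wholly in annotated exons.
CA9, chr9:35673898-35673927, plus strand: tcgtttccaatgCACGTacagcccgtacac
ALDOC, chr17:28576906-28576935, minus strand: ccccggaggagtCACGTagctctgcgacat
PFKFB4, chr3:48556952-48556981, minus strand: tgagttgggcatGCGTGgtcggaggccggg
ENO2, chr12:6914450-6914479, plus strand: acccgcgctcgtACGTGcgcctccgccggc

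The CA9 match begins 18 bases before the start and reads ACGTG on the opposite strand, while the ALDOC window holds 5 matches. No match in any window was found for EGLN3, LDHB, P4HA2, PGAM1, PKM and SLC2A1. In the plasmid comparison 33 of the 35 genes with a match rose and 1 (CA12) fell, with a median log2 change of 0.66. Of the 6 genes without one 3 rose (P4HA2, PGAM1 and SLC2A1) and 2 fell (EGLN3 and LDHB), with a median of 0.20. Among all tested genes with a window, 39.0% of the 7250 with a match and 39.9% of the 4228 without one rose, with median log2 changes of -0.0011 and 0.0267. Genes with more windows have more chances of a match, so these counts are not matched for window number.

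With the ITGB4 plasmid nearly the whole set was higher. Libraries were scaled by the trimmed mean of M-values (TMM) and tested with edgeR's quasi-likelihood test over all genes, with Benjamini-Hochberg adjustment and a threshold of 0.05. Of the 45 genes, all tested, 40 rose, 3 fell (LDHB, EGLN3 and CA12) and 2 did not pass (PFKL and PKM), where 36.5% of all 16950 genes tested rose, 35.7% fell and 72.2% passed in either direction. The median log2 change of the set was 0.68, a 1.60-fold rise, against 0.0017 over all genes tested. Changes of more than 2-fold upward were made by 13 of the 45, against 7.53% of all genes, and by none downward, against 8.67%. The libraries of the groups did not overlap for 40 genes that were higher and 3 that were lower, against 37.4% and 37.1% of all genes. Leaving out each library in turn gave 38 to 40 risers and 2 or 3 fallers.

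**Figure D1:**
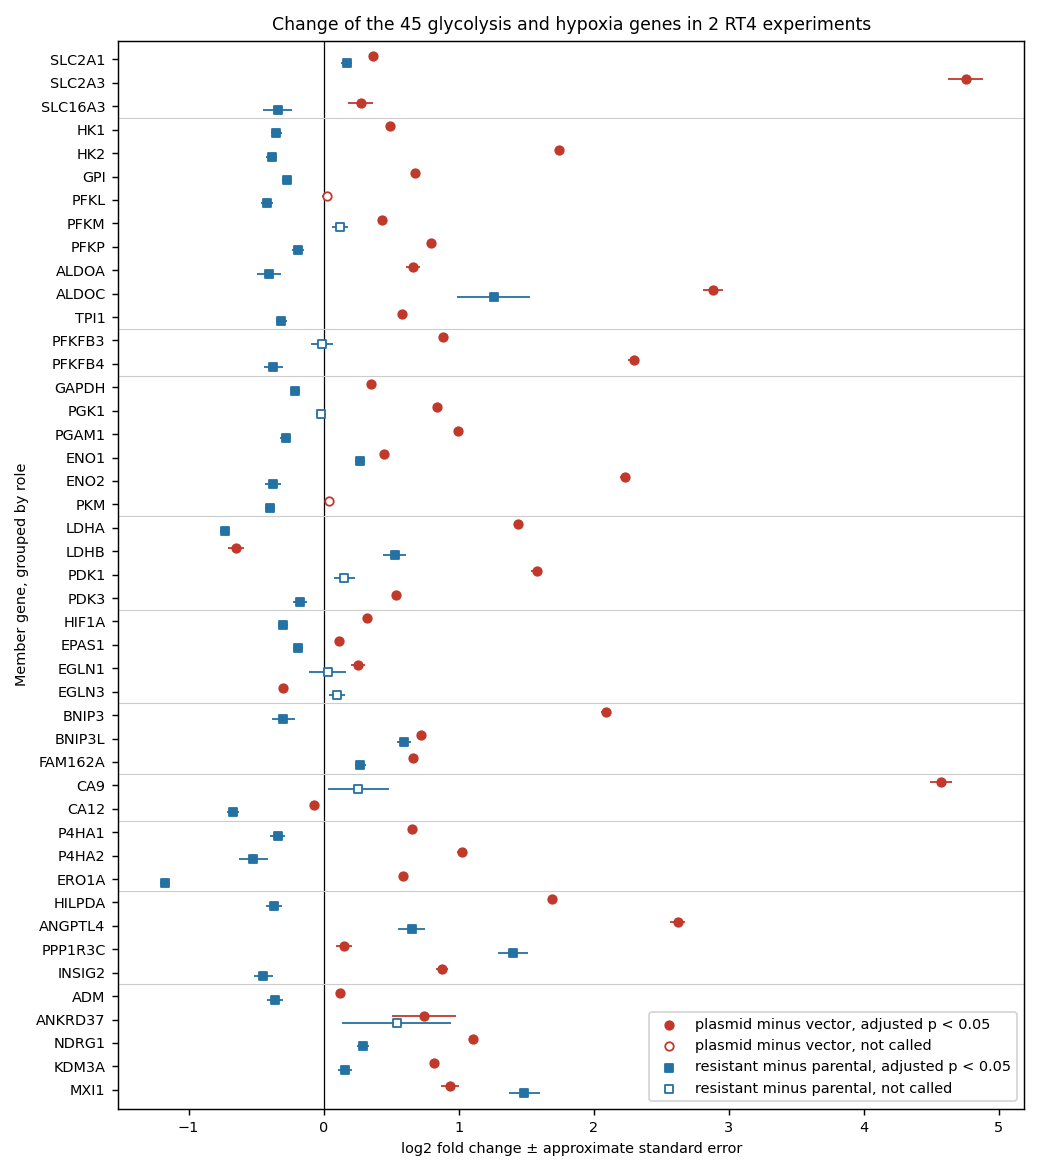
Log2 fold change of each of the 45 genes, grouped by role, with plasmid minus vector in red circles and resistant minus parental in blue squares; bars are approximate standard errors and open symbols did not pass an adjusted p of 0.05. SLC2A3 and CA9 lie farthest to the right, above 4.5 on the log2 scale, and most blue squares lie left of 0.

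All 3 carriers rose with the plasmid. SLC2A3, a high-affinity glucose carrier, stood at 0.570, 0.452 and 0.503 CPM in the vector libraries and at 14.6, 14.1 and 12.7 CPM in the plasmid libraries. All plasmid libraries were far above all vector libraries, with a 27.0-fold difference (log2 4.75, SE 0.13, adjusted p = 4.60e-15) that rests on 45 counts in the vector group and 1075 in the plasmid group. Its near-identical paralog SLC2A14 had 4 and 13 counts, so reads that fit both genes could not be placed with certainty. SLC2A1, the main glucose carrier of most cultured cells, rose from 200 ± 2.12 to 257 ± 4.83 CPM (SD, n = 3), a log2 change of 0.37. SLC16A3, which exports lactate, was low and rose from 5.01 ± 0.273 to 6.06 ± 0.241 CPM (adjusted p = 0.0137), a call that was lost without plasmid replicate 3 or vector replicate 1, with upper quartile scaling and with DESeq2.

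Of the 9 genes from hexokinase to aldolase and triose phosphate isomerase 8 rose. HK2, the inducible hexokinase that traps glucose in the cell, was at 103, 106 and 105 CPM in vector and at 351, 352 and 349 CPM in plasmid libraries. The groups lay far apart and the SD within each was under 2 CPM, with a log2 change of 1.74 (SE 0.026, adjusted p = 2.17e-18). ALDOC, an aldolase isoenzyme, went from 3.92, 3.48 and 3.58 CPM to 26.6, 26.0 and 28.1 CPM, a log2 change of 2.88 (SE 0.073). GPI, which converts glucose phosphate to fructose phosphate, rose by a log2 of 0.68, TPI1 by 0.58, PFKP by 0.80, HK1 by 0.49 and PFKM by 0.43. ALDOA rose by 0.66, but 53.5% of its exon bases are shared with other annotated genes and its level is therefore uncertain. PFKL, the liver phosphofructokinase, overlapped between the groups at 209 ± 3.24 and 213 ± 11.2 CPM (adjusted p = 0.521), and its sign turned when libraries were scaled by total count alone (log2 -0.02).

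Both PFKFB enzymes, which set the level of a sugar phosphate that activates phosphofructokinase, rose. PFKFB4 was at 28.1, 30.4 and 31.0 CPM in vector and at 152, 142 and 147 CPM in plasmid libraries, with no overlap and a log2 change of 2.30 (SE 0.040, adjusted p = 1.05e-17). PFKFB3 rose from 57.5 ± 0.436 to 106 ± 0.964 CPM, a log2 change of 0.89.

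From glyceraldehyde phosphate to pyruvate 5 of 6 genes rose. ENO2, an enolase best known from neurons, went from 28.8, 31.7 and 30.9 CPM to 145, 146 and 139 CPM, a log2 change of 2.23 (SE 0.038). The abundant enolase ENO1 rose by only 0.45, from 871 ± 27.1 to 1190 ± 28.6 CPM. PGAM1, a phosphoglycerate mutase, rose by a log2 of 0.99, PGK1, the first ATP-making step, by 0.84 and GAPDH by 0.35. PKM, the pyruvate kinase and one of the most abundant members, was at 4914 ± 85.2 and 5047 ± 90.5 CPM (log2 0.04, adjusted p = 0.0998), with overlapping libraries, and turned to -0.00137 when scaled by total count alone, while it passed with limma-voom (adjusted p = 0.0479) and without plasmid replicate 2 (0.0448). Per kilobase of exon GAPDH was the highest member in every group, at 878 CPM per kilobase in vector and 1122 in plasmid libraries, and PKM came next at 573 and 589.

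At the fate of pyruvate the lactate dehydrogenase subunits moved apart. LDHA, the subunit that favours lactate formation, was at 889, 912 and 897 CPM in vector and at 2497, 2425 and 2381 CPM in plasmid libraries, a log2 change of 1.44 (SE 0.023, adjusted p = 4.54e-18). LDHB, the subunit that favours pyruvate, fell from 33.5, 32 and 34.9 CPM to 19.2, 21.2 and 23.2 CPM, a log2 change of -0.65 (SE 0.059, adjusted p = 3.61e-08). Neither gene's groups overlapped, and 33.4% of the exon bases of LDHB are shared with another annotated gene. PDK1 and PDK3, kinases that switch off pyruvate dehydrogenase, rose by a log2 of 1.58 and 0.54, PDK1 from 29.1 ± 0.765 to 86.7 ± 3.09 CPM.

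The 17 glycolytic enzyme genes from hexokinase to lactate dehydrogenase together took 1.23% ± 0.0189 of all counts in vector and 1.66% ± 0.0385 in plasmid libraries (SD, n = 3). Within steps the balance of isoenzymes also differed, as seen in CPM per kilobase of exon, a scale that uses GENCODE 29 exon lengths because the count tables give none. HK2 made up 29% ± 0.367 of HK1 and HK2 in vector and 49.3% ± 0.766 in plasmid libraries. PFKFB4 went from 34.2% to 58.0% of the PFKFB3 and PFKFB4 sum, and ENO2 from 4.13% to 12.9% of the ENO1 and ENO2 sum. LDHB went the other way, from 7.19% ± 0.353 of the LDHA and LDHB sum to 1.78% ± 0.207. These shares are descriptions, with no test.

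**Figure D2:**
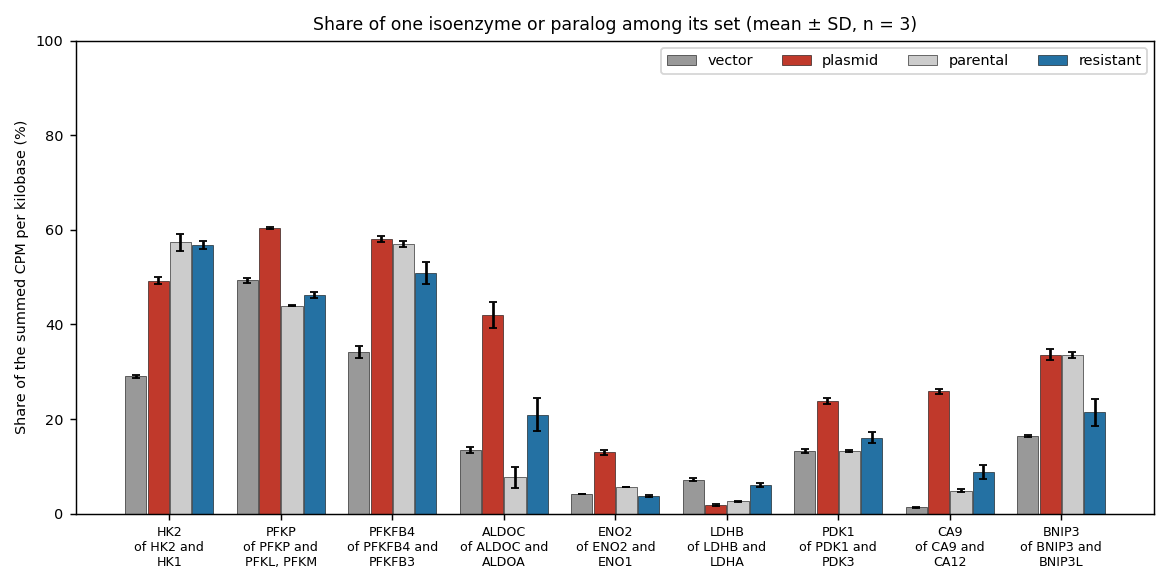
Share of one isoenzyme or paralog in the summed CPM per kilobase of its set, in percent, for the vector, plasmid, parental and resistant groups (bars, mean; error bars, SD, n = 3). HK2, PFKFB4, ENO2, CA9 and BNIP3 take a larger share with the plasmid, while LDHB goes from 7.19% to 1.78% there and from 2.61% in parental to 6.03% in resistant cells.

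Among the HIF sensors the changes were small. HIF1A, an alpha subunit regulated mainly at the protein level, rose from 759 ± 5.41 to 946 ± 37.9 CPM (log2 0.32, SE 0.027), and its relative EPAS1 from 573 ± 2.43 to 621 ± 9.35 CPM (log2 0.12). EGLN1, the main oxygen-sensing prolyl hydroxylase, rose by 0.25. EGLN3, another prolyl hydroxylase and itself a known HIF target, was at 354, 357 and 357 CPM in vector and at 290, 289 and 289 CPM in plasmid libraries. It fell by 0.30 on the log2 scale (SE 0.024, adjusted p = 5.50e-09), with no overlap between the groups.

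Of the 17 other HIF targets 16 rose. CA9, a membrane carbonic anhydrase widely used as a hypoxia marker, was at 1.33, 1.5 and 1.27 CPM in vector and at 32.2, 33.3 and 32 CPM in plasmid libraries. That 23.8-fold rise (log2 4.57, SE 0.081, adjusted p = 1.48e-17) separated the groups completely, although 38.5% of CA9's exon bases are shared with ARHGEF39. CA12, the other membrane carbonic anhydrase, fell by only 0.07 on the log2 scale (adjusted p = 0.0158), a call that was lost without plasmid replicate 3 or vector replicate 2.

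BNIP3 went from 28.7, 29 and 28.1 CPM to 122, 120 and 122 CPM, a log2 change of 2.09 (SE 0.033). Counts on 44 BNIP3 pseudogenes equalled 4.18% of those on BNIP3 here and 11.4% in the resistance experiment. Reads that fit both could not be placed with certainty. The BNIP3 relative BNIP3L and the mitochondrial protein FAM162A rose less, by 0.72 and 0.66. BNIP3 went from 16.4% to 33.6% of the per-kilobase sum of BNIP3 and BNIP3L. ANGPTL4, an inhibitor of lipoprotein lipase, went from 12.6, 13.8 and 13.8 CPM to 87.0, 77.4 and 83.9 CPM, a log2 change of 2.62 (SE 0.053). HILPDA, a lipid droplet protein, rose from 55.2 ± 1.74 to 179 ± 5.22 CPM (log2 1.69), and INSIG2, which restrains sterol synthesis, by a log2 of 0.88. PPP1R3C, a glycogen-targeting phosphatase subunit, rose by only 0.15 (adjusted p = 0.0311), and 4 of the 6 fits that left out a library lost that call. It was also lost with DESeq2, with scaling by total count alone, with upper quartile scaling, with no filter on low counts and with all 12 libraries fitted together. Scaling by relative log expression kept it.

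The collagen prolyl hydroxylases P4HA1 and P4HA2 rose by a log2 of 0.66 and 1.02, and ERO1A, which drives disulfide formation in the endoplasmic reticulum, by 0.59. NDRG1, a stress-induced gene, rose by 1.10, the MYC antagonist MXI1 by 0.94 and the histone demethylase KDM3A by 0.82. ADM, the peptide adrenomedullin, rose by 0.12, a call that was lost with upper quartile scaling (adjusted p = 0.0607) and in a fit of all 12 libraries (0.0627). ANKRD37 rose by 0.74 from a level of 0.750 CPM, a call that was lost without plasmid replicate 1 and in that same fit.

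**Figure D3:**
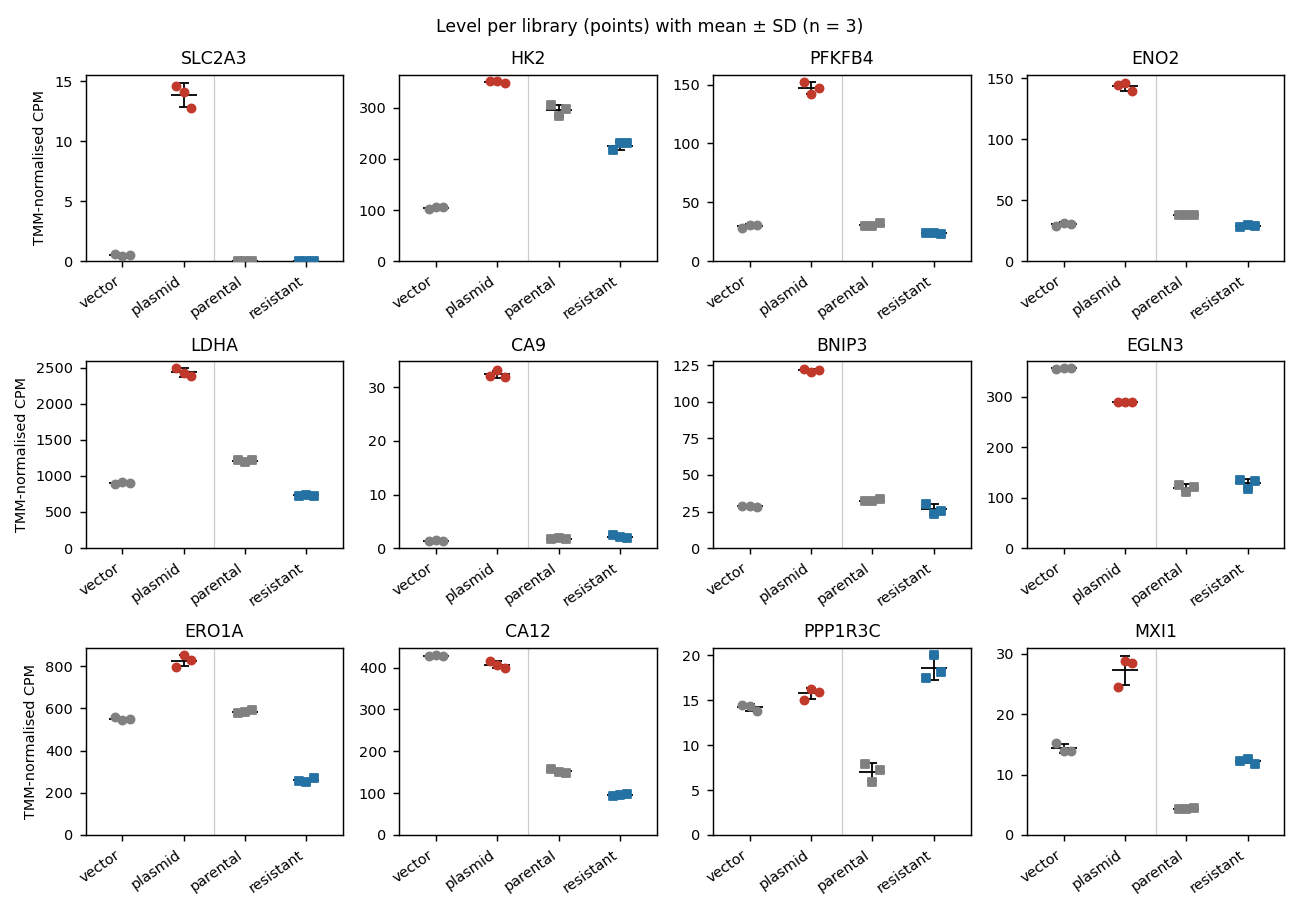
TMM-normalised CPM of 12 members in each library (points) with the mean and SD of each group (n = 3), on linear axes from 0; the 2 tables were normalised separately, so levels should be compared within an experiment. SLC2A3, CA9 and BNIP3 are highest in the plasmid libraries, and ERO1A goes from 551 to 827 CPM with the plasmid and from 584 in parental to 258 CPM in resistant cells.

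In resistant cells the set leaned the other way, with smaller changes, and the lean lay mainly in the glycolytic genes. Of the 45 genes 44 were tested, of which 11 rose, 25 fell and 8 did not pass, where 26.8% of all 16875 genes tested rose, 27.7% fell and 54.5% passed in either direction. The median log2 change was -0.20, against 0.018 over all genes tested. Groups did not overlap for 12 genes that were higher and 25 that were lower, against 30.3% and 30.5% of all genes. ALDOC, PPP1R3C and MXI1 rose more than 2-fold, where 6.9% of all genes did, and ERO1A alone fell more than 2-fold, where 4.58% did. Scaling by total count alone moved the median of all genes by 0.164 on the log2 scale and gave 15 risers and 19 fallers among the set, while all genes went from 4520 higher and 4679 lower to 6548 and 3111. SLC2A3 was not tested, with 0 counts in the parental libraries, which allows up to 0.0270 CPM in that group, and 2 counts in the resistant ones.

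Among the glycolytic genes 15 of 23 tested fell (65.2%) and 4 rose (17.4%), with a median log2 change of -0.27. LDHA was at 1219, 1199 and 1218 CPM in parental and at 726, 739 and 721 CPM in resistant libraries, with a log2 change of -0.73 (SE 0.032, adjusted p = 3.64e-12). LDHB was at 15.7, 15 and 16 CPM in parental and at 23.1, 23.9 and 20.4 CPM in resistant libraries, a log2 change of 0.53 (SE 0.084, adjusted p = 4.44e-05). The groups of neither gene overlapped, and LDHB went from 2.61% ± 0.0596 to 6.03% ± 0.411 of the per-kilobase sum of both subunits.

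PKM fell from 4717 ± 77.5 to 3581 ± 190 CPM (log2 -0.40) and PFKL from 237 ± 1.48 to 177 ± 9.98 CPM (log2 -0.42), the pair that had not passed in the plasmid comparison. HK2 fell by 0.38 on the log2 scale, HK1 by 0.35, TPI1 by 0.31, PGAM1 by 0.28 and GPI by 0.27. PFKFB4 and ENO2 both fell by 0.37, and ALDOA by 0.40. SLC16A3 fell by 0.34, GAPDH by 0.21, PFKP by 0.19 and PDK3 by 0.18. These 4 calls were lost when libraries were scaled by total count alone. The calls of SLC16A3, PFKP and PDK3 were also lost with upper quartile scaling, and that of SLC16A3 without resistant replicate 3.

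Of the glycolytic genes that were higher, ALDOC was at 0.779, 1.42 and 1.49 CPM in parental and at 3.44, 2.21 and 3.18 CPM in resistant libraries. It rose by a log2 of 1.26 (SE 0.27, adjusted p = 7.31e-04) on 128 counts in the parental and 322 in the resistant group. ENO1 rose from 774 ± 6.38 to 936 ± 42.6 CPM (log2 0.27) while ENO2 fell, and SLC2A1 rose by 0.17. PGK1 was at 424 ± 3.50 and 418 ± 12.5 CPM (adjusted p = 0.643), and PFKFB3 at 23.3 ± 0.829 and 23.1 ± 1.99 CPM (adjusted p = 0.928); scaling by total count alone turned both positive, to 0.14 and 0.15. PFKM and PDK1 did not pass (both adjusted p = 0.103) but passed with that scaling, at 0.28 and 0.32. They also passed with upper quartile scaling, at 0.22 and 0.26, and in the fit of all 12 libraries. PDK1 passed without resistant replicate 1 as well. The 17 enzyme genes together took 1.14% ± 0.0078 of counts in parental and 1.04% ± 0.0369 in resistant libraries.

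Of the 21 HIF system genes and other targets 10 fell (47.6%) and 7 rose (33.3%), both above the 27.7% and 26.8% of all genes. Their median log2 change was 0.03, near the 0.018 of all genes, unlike that of the glycolytic genes. HIF1A fell from 461 ± 1.42 to 374 ± 3.74 CPM (log2 -0.30, SE 0.035, adjusted p = 1.18e-06), and EPAS1 by 0.19. The EPAS1 call was lost with scaling by total count and with upper quartile scaling. EGLN1 and EGLN3 did not pass (adjusted p = 0.870 and 0.158). EGLN3 passed at 0.26 with scaling by total count, at 0.21 with upper quartile scaling and at 0.16 without resistant replicate 2. ERO1A was at 577, 582 and 592 CPM in parental and at 255, 252 and 268 CPM in resistant libraries, a 2.26-fold fall (log2 -1.18, SE 0.038, adjusted p = 6.85e-14). P4HA2 fell by 0.52 and P4HA1 by 0.34, so all 3 genes of collagen hydroxylation and disulfide formation fell.

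CA12 was at 157, 150 and 149 CPM in parental and at 92.2, 95.7 and 98.7 CPM in resistant libraries, and fell by 0.67 on the log2 scale (SE 0.046, adjusted p = 1.38e-09). CA9 was at 1.76 ± 0.0971 and 2.11 ± 0.335 CPM, with overlapping libraries (adjusted p = 0.359). INSIG2 fell by 0.45, HILPDA by 0.37, ADM by 0.36 and BNIP3 by 0.30. The BNIP3 call was lost without resistant replicate 2, with scaling by total count and with upper quartile scaling.

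Those that rose were led by MXI1, at 4.26, 4.28 and 4.49 CPM in parental and at 12.2, 12.5 and 11.8 CPM in resistant libraries (log2 1.49, SE 0.11, adjusted p = 4.64e-09). PPP1R3C was at 7.90, 5.91 and 7.21 CPM in parental and at 17.5, 20.1 and 18.2 CPM in resistant libraries (log2 1.40, SE 0.11, adjusted p = 8.87e-09). Both were well separated between groups. ANGPTL4 rose by 0.65, BNIP3L by 0.60, NDRG1 by 0.29, FAM162A by 0.27 and KDM3A by 0.16, the last lost without parental library a or c. ANKRD37 did not pass (adjusted p = 0.273), but passed without parental library a, at a log2 of 1.12.

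Read gene by gene across the experiments, which share no library, 22 genes rose with the plasmid and fell in resistant cells, among them HK2, LDHA, PFKFB4, ENO2, BNIP3, HILPDA and ERO1A. Another 10 rose in both: SLC2A1, ALDOC, ENO1, BNIP3L, FAM162A, ANGPTL4, PPP1R3C, NDRG1, KDM3A and MXI1. LDHB fell with the plasmid and rose in resistant cells, and CA12 fell in both. The share of all genes with each pair of calls was not counted, so these joint counts have no background beside them. In the separate fits 36.5% of all genes rose and 35.7% fell with the plasmid, and 26.8% rose and 27.7% fell in resistant cells. A single fit over all 12 libraries tested the difference of the changes, plasmid minus vector less resistant minus parental. The difference was positive for 37 of the 45 genes and negative for 4 (LDHB, EGLN3, PPP1R3C and MXI1), where 30.2% of all 18516 genes were positive, 31.6% negative and 61.8% passed in either direction.

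The difference was 4.29 on the log2 scale for CA9 (SE 0.19), 2.65 for PFKFB4, 2.58 for ENO2, 2.37 for BNIP3, 2.15 for LDHA and 2.10 for HK2. It was -1.28 for PPP1R3C (SE 0.13), -1.21 for LDHB, -0.58 for MXI1 and -0.42 for EGLN3. EGLN1, BNIP3L, ANKRD37 and SLC2A3 did not pass (adjusted p = 0.176, 0.130, 0.771 and 0.769), and the SLC2A3 value has no base because its parental libraries are at 0. BNIP3L passed without parental library a (adjusted p = 0.0445) or plasmid replicate 1 (0.0323), EGLN1 without resistant replicate 3 (0.0318) and SLC2A3 with limma-voom (8.61e-04). ENO1 and SLC2A1 passed at 0.15 and 0.17 but turned to -0.02 and -0.00869 when scaled by total count alone, a scaling that gave 34 positive and 4 negative members and took all genes from 5585 positive and 5857 negative to 4422 and 7250. The experiments differ in medium, count table and treatment, and these cannot be told apart from the difference.

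**Figure D4:**
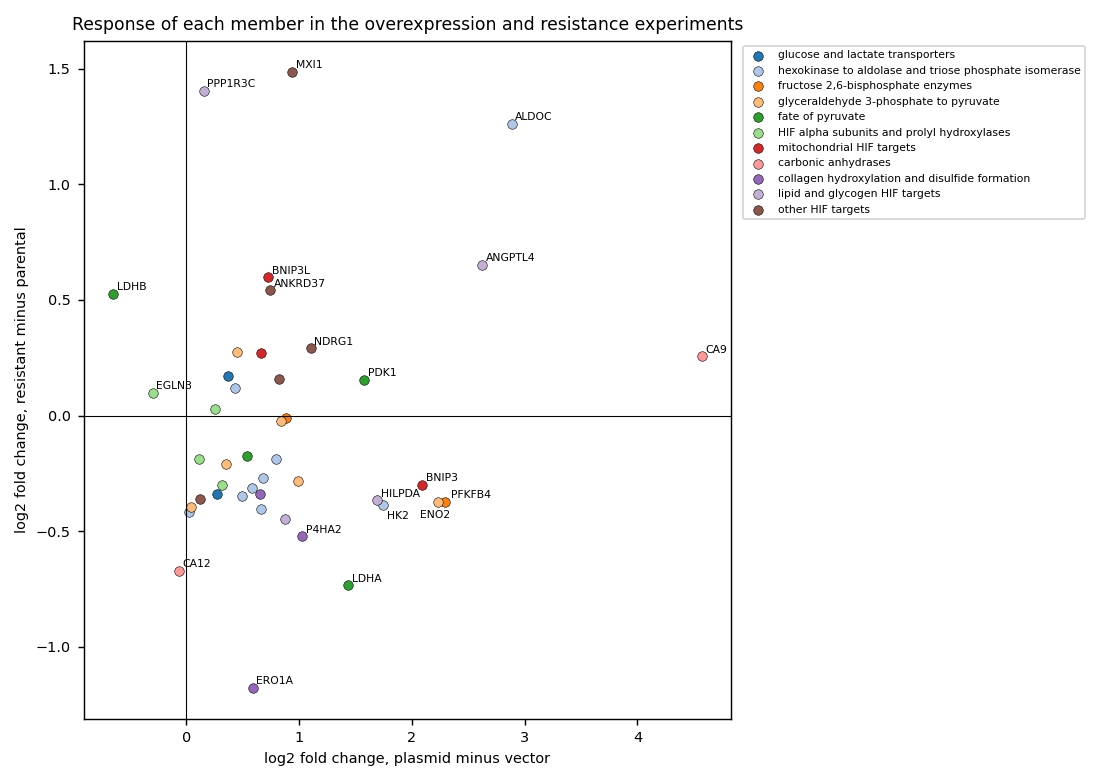
Log2 fold change with the plasmid (x axis) against that in resistant cells (y axis) for the 44 genes tested in both, coloured by role; genes that lie apart are named. The lower right holds LDHA, HK2, ENO2, PFKFB4 and BNIP3, and the upper left holds LDHB and EGLN3.

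Neighbouring pathways were counted from lists of other genes, to be read against the 36.5% of all genes that rose and 35.7% that fell with the plasmid, and the 26.8% and 27.7% that did so in resistant cells. Of 13 genes of pyruvate entry into mitochondria 10 fell and 1 rose with the plasmid, with a median log2 change of -0.35. MPC1 and MPC2, the subunits of the mitochondrial pyruvate carrier, fell by 1.61 and 0.70. PDK2, like PDK1 a kinase that switches off pyruvate dehydrogenase, fell by 1.16. The list counts such kinases together with pyruvate dehydrogenase genes, so its counts do not measure pyruvate entry. Of 19 nuclear-encoded respiratory chain subunits 17 fell and 1 rose, with COX5B lowest at -0.53, and of 17 genes of the tricarboxylic acid cycle 10 fell and 5 rose. In resistant cells the pyruvate entry genes gave 6 higher and 4 lower, with PDK2 at 1.23 and MPC1 at 0.52. There the respiratory subunits gave 11 higher and 0 lower, led by NDUFV1 at 0.85, and the cycle genes 6 higher and 2 lower.

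Other HIF-responsive genes were mixed. With the plasmid 18 of 30 tested rose and 10 fell, with PPFIA4 at 4.02, from 0.933 to 14.9 CPM and LOXL2 at 1.65, while VEGFA, the angiogenic factor, was among the 10 that fell. In resistant cells 7 of 30 rose and 12 fell, led by LOX at -1.64 and IGFBP3 at -1.31. Of 14 HIF partners and degradation factors 5 rose and 5 fell with the plasmid, 35.7% each way and so near the shares of all genes, where ARNT2 fell by 0.99, and 7 rose and 5 fell in resistant cells, where ARNT2 was at 0.77 and ARNT at -0.77. The other glycolytic enzymes and carriers gave 7 higher and 5 lower of 14 with the plasmid, and 4 higher and 6 lower of 13 in resistant cells; FBP1, which runs the pathway backwards, was at -0.91 and 0.81. Of 6 genes of the glucose-sensing MondoA axis 3 rose and 2 fell with the plasmid, with TXNIP at 1.97 and KLF10 at -0.845, and 3 rose and 1 fell in resistant cells, where MLXIPL was at 1.41 and TXNIP did not pass.

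**Figure D5:**
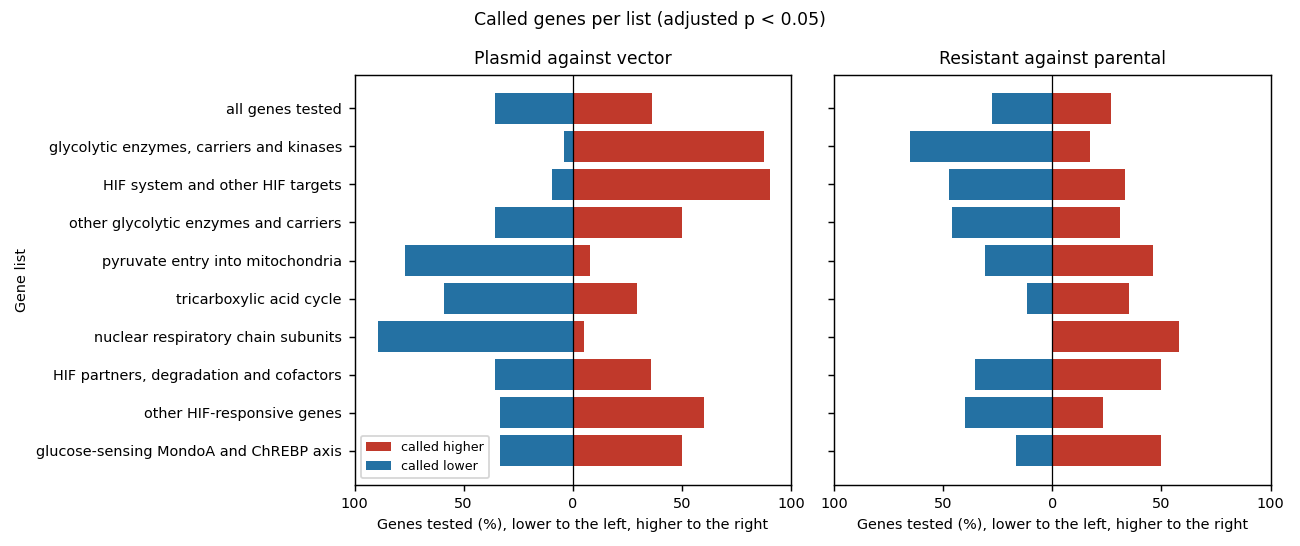
Percent of tested genes called lower (left, blue) and higher (right, red) in each list, for plasmid against vector and resistant against parental, with all genes tested at the top. The glycolytic and HIF member groups stand at 87.5% and 90.5% higher with the plasmid, and the respiratory subunits stand at 89.5% lower there and 57.9% higher in resistant cells.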

How the data were processed

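RNA-seq counts per gene were deposited by the authors as 2 tables. Per the file headers, the overexpression table was counted with featureCounts 2.0.1 from HISAT alignments of read pairs over exons of Ensembl 107 (GRCh38), with no strand option, although the labels name a directional kit. For the resistance table, hg38 is named per the submitters' processing notes, while its aligner and counter are not stated in any label or header. The parental columns of that table carry no sample title; they are named NC, as the vector controls of the other table are, were taken as parental by elimination, an inference, and are called parental library a, b and c. Gene symbols were matched for 61757 of 61860 and 62700 of 62700 identifiers.

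The counts were analysed in R 4.3.3 with edgeR 4.0.16 (filterByExpr, minimum count 10, TMM, quasi-likelihood test, Benjamini-Hochberg over all genes), each experiment by itself, with 1 further fit over all 12 libraries for the difference. Standard errors are approximate, the absolute log2 change divided by the square root of F. The script was tested on simulated data, where the false share among called genes was above the threshold of 0.05 in most runs. Far fewer genes were changed there than were called here, so that share need not carry over. Calls near the threshold may still be less firm than the threshold states. Alternatives used limma 3.58.1, DESeq2 1.42.0, other scalings and filters, a replicate block and each library left out. The members and lists were chosen with earlier results of these data known. Members may all be named; from other lists, up to 3 called genes per comparison with the largest change and a mean of at least 1 CPM were named (some that this rule names are not reported here), and VEGFA, and TXNIP and FBP1 in resistant cells, were named after their values were seen. Levels per kilobase and gene overlaps use GENCODE 29. The counts have no molecular identifiers, so limits for counts of 0 cover counting error only. The common biological coefficient of variation was 2.65% and 6.97%.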

Additional observations from a re-analysis of the deposited data

How the results depend on the processing

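More members were higher than lower with the plasmid in every alternative run, and more were lower than higher in resistant cells in every one except the test against a 1.5-fold change. With a test against a 1.5-fold change (glmTreat), 24 members were higher and 0 lower with the plasmid, beside 1880 and 1938 of all genes, and 3 higher and 2 lower in resistant cells, beside 1042 and 1065; that test asks for a larger change by construction. Scaling by total count alone left 3111 genes lower in resistant cells. That scaling leaves out the TMM factors, which were 0.941 to 0.948 in parental and 1.05 to 1.07 in resistant libraries. Why the factors differ between the groups was not tested. The replicate block, fitted for the overexpression experiment, gave 40 members higher and 3 lower and changed no member's call. Of all genes it gave 6105 higher and 5965 lower, beside 6185 and 6049 in the main fit. Same-numbered libraries did not deviate together (correlations -0.0988, -0.123 and -0.0837), while differently numbered ones correlated at 0.0263 to 0.095. Deviations were taken from each group's own mean and cancel within a group, so the values of differently numbered pairs depend on those of same-numbered pairs. The cause of the negative values was not tested. No paired analysis was possible for the resistance experiment because the parental columns carry no number tied to a sample.

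Signs turned for genes near 0. With the plasmid, PFKL went to -0.0153 (total count) and -0.0395 (upper quartile), PKM to -0.00137 and -0.0254, and PFKL ran from -0.0123 to 0.0678 with each library left out. In resistant cells PFKFB3 went to 0.15, 0.0961 and 0.00404 (total count, upper quartile, 1 CPM filter) and PGK1 to 0.14 (adjusted p = 0.00284 by edgeR) and 0.0837. With each resistant library left out, PFKFB3 ran from -0.0591 to 0.0602, PGK1 from -0.0309 to 0.00625 and EGLN1 from -0.0607 to 0.13. Without parental library a EGLN1 was at -0.00118, and without parental library c PFKFB3 was at 0.0114. The difference between experiments went to -0.0785 and -0.0458 for BNIP3L, -0.0249 for ENO1 and -0.00869 for SLC2A1, and was -0.37 for ANKRD37 without parental library a; the cause was not tested. Leaving out mitochondrial genes, an alternative chosen after seeing the data, gave 11 members higher and 25 lower in resistant cells. With the plasmid it gave 40 and 3, which could not change because these genes were at 0 in every library there. Depth limits ANKRD37, ALDOC and CA9 in the resistance experiment and SLC2A3 in both.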
